A study of Mus musculus with 4 samples.

Results

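The circadian clock genes examined here are Arntl, Clock, Npas2, Per1, Per2, Per3, Cry1, Nr1d1, Nr1d2 and Dbp, 10 genes named by a fixed list out of 22180 genes with a level on the arrays. A gene's level is the log2 value of the probe set that the platform annotation assigns to its symbol alone. By this rule 9 of the 10 genes had a level, each from 1 probe set. The probe set that lists Per2 lists another symbol with it, so Per2 has no level here. Of the 9 genes, 8 reached the floor below which levels were not compared, set at log2 3.52 (each gene's level was averaged over the 4 pools, and the floor is the median of these averages). Npas2 lay below it on every array.

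The arrays measured total RNA from livers of C57BL/6 mice older than 2 months, and each of the 4 arrays held a single pool of livers. The first pool combined 7 wild-type (WT) mice kept on regular chow. The others combined 7 WT mice after 3 weeks on a diet of 70% fructose, 4 WT mice after 2 weeks, and 6 Chrebp-null mice after 2 weeks on it. Chrebp is the older name of Mlxipl, which encodes a sugar-responsive transcription factor. Males and females were mixed in all pools. The labels used here do not say how the null allele was made, how many mice of each sex were pooled or at what hour the livers were taken. The mice lived under 12 h of light and 12 h of dark with free access to food. The comparisons given by the series are 2, with no array in common: WT after 3 weeks of fructose over WT on chow (the fructose comparison), and null over WT mice, both fed fructose for 2 weeks (the Chrebp-null comparison). Since a group is 1 array, no test could be made and no value has an error from replicates; precision is limited by how few arrays there are. In a pool, fewer cells of a type and less RNA per cell cannot be told apart.

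The mammalian clock is a loop of transcription and feedback that runs in nearly every cell, hepatocytes included. ARNTL (BMAL1) pairs with CLOCK or its relative NPAS2, binds E-boxes and switches on the Per and Cry genes, the REV-ERB genes Nr1d1 and Nr1d2, and Dbp. PER and CRY proteins then block that pair, and the REV-ERB receptors repress Arntl through a second element that they share with the activating ROR receptors. Levels of Arntl messenger RNA therefore peak at another time of day than those of Nr1d1 and Dbp, and in the liver feeding time is a strong setter of the cycle.

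The promoters of the members were searched for elements through which clock proteins act. RefSeq promoter windows of the GRCm38.p6 assembly, from 250 bases before a transcript's start to 50 after it, were found for 9 of the 10 genes, 13 windows in all, and not for Per2. They were searched on both strands for 6 elements. The E-box was CACGTG. A variant that differs from it in the last base was CACGTT. The D-box, bound by DBP and its relatives, was written TTATGTAA, or TTACGTAA in its other common form. The element of the REV-ERB and ROR receptors was written TAGGTCA, or TGGGTCA in its other common form. The cyclic AMP element was TGACGTCA, and the carbohydrate response element that ChREBP binds was the sixth element searched. A window of 5 of the 9 genes held a match. Some genes had several windows, and the share of all genes with a match to any of the 6 elements was not counted. The count of 5 is therefore no trait of the members. The other windows of Arntl and Per1 held no match. In the sequences that follow the matches are in capitals, and no 2 of them overlap. These windows are shown because each holds an element of a kind that clock proteins are known to bind.
Arntl promoter, chr7:113207261-113207560, strand +: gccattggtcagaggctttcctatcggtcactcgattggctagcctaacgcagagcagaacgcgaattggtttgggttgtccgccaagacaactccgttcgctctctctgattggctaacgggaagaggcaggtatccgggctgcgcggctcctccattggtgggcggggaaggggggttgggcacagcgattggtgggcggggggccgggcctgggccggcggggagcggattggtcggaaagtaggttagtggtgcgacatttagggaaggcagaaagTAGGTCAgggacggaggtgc
Nr1d1 promoter, chr11:98775328-98775627, strand -: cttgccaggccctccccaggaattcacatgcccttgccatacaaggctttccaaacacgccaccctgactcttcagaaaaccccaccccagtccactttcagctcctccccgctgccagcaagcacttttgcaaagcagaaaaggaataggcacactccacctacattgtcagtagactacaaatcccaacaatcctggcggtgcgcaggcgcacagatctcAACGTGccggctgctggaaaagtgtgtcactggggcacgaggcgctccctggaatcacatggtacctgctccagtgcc
Per1 promoter, chr11:69098699-69098998, strand +: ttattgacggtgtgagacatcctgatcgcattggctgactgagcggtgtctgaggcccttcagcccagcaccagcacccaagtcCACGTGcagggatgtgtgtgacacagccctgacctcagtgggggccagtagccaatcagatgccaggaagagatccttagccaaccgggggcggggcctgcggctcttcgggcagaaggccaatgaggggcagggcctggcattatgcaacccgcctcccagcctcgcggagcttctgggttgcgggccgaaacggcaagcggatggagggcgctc
Cry1 promoter, chr10:85185005-85185304, strand -: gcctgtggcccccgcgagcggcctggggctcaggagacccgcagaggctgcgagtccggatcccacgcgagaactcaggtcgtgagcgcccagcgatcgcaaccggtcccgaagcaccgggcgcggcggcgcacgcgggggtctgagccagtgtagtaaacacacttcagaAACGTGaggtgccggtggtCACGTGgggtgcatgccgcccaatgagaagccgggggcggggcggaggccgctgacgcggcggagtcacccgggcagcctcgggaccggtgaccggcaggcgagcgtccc
Per3 promoter, chr4:151044616-151044915, strand -: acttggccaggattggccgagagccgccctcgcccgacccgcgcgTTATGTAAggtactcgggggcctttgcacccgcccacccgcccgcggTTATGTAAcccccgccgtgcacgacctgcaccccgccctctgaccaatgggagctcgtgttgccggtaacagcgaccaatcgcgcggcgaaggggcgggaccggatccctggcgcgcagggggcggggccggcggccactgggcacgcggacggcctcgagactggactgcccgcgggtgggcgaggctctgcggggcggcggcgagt
The Arntl window held TAGGTCA starting at base 31 of the transcript. Such an element stood in 6.45% of all 32851 windows. The Nr1d1 window held the E-box variant on its reverse strand, printed as AACGTG, 28 bases before the start, a variant found in 4.68% of windows. Per1 held CACGTG 166 bases before the start of its upstream transcript, and Cry1 held CACGTG 60 bases and the variant 79 bases before its start. The E-box stood in 7.15% of windows. Per3 held the D-box TTATGTAA at 205 and 158 bases before its start, an element found in 1.06% of windows. No match to the carbohydrate response element, found in 0.119% of all windows, or to the cyclic AMP element, found in 1.79%, stood in the members' windows. A match here is a description of the letters and not a bound site, and these windows do not cover introns or distant elements.

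Dbp was the member that differed most between pools, and the difference set the 3-week WT pool and the null pool apart from the other two. Dbp encodes a transcription factor of the PAR bZIP family whose messenger RNA follows the clock closely. Its log2 level was 9.70 in the chow pool, 8.53 in WT after 3 weeks of fructose, 9.63 in WT after 2 weeks and 8.78 in the null pool. The chow and 2-week WT pools were thus close, and the 3-week WT and null pools lay below them.

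Nr1d1 and Nr1d2 encode REV-ERB alpha and beta, the repressors that bind the element seen in the Arntl window. Nr1d1 stood at 8.98 on chow, 8.49 and 8.88 in WT after 3 and 2 weeks of fructose, and 7.91 in the null pool. Nr1d2 stood at 8.65, 8.60, 8.71 and 8.16 in the same order. Both receptors were lowest in the null pool. The 3 WT pools lay within 0.11 of each other for Nr1d2 (range of its levels in those pools) and within 0.49 for Nr1d1.

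The activators Arntl and Clock were highest in the null pool, where the REV-ERB genes were lowest. Arntl stood at 4.28 on chow, 4.00 in WT after 3 weeks of fructose, 4.53 after 2 weeks and 5.09 in the null pool, its highest level. Clock, whose protein is the partner of ARNTL, stood at 8.37, 8.67, 8.58 and 8.99 in the same order, with the null pool again highest. Npas2, which encodes the partner that can take the place of CLOCK, stood between 2.27 and 2.83, below the floor in every pool, and is not compared further.

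The PER and CRY genes, which encode the repressors of the ARNTL and CLOCK pair, did not share a single order. Per1 was lowest in WT after 3 weeks of fructose, at 8.09, and highest in WT after 2 weeks, at 9.09, with chow at 8.63 and the null pool at 8.58 between them. Per3 stood at 6.34 on chow, 6.53 and 6.63 in WT after 3 and 2 weeks, and 6.17 in the null pool. Cry1 was nearly level, from 5.20 on chow to 5.40 in the null pool, with a range of 0.21 over the 4 pools against 1.17 for Dbp. The plot of levels by pool shows these orders side by side.

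**Figure D1:**
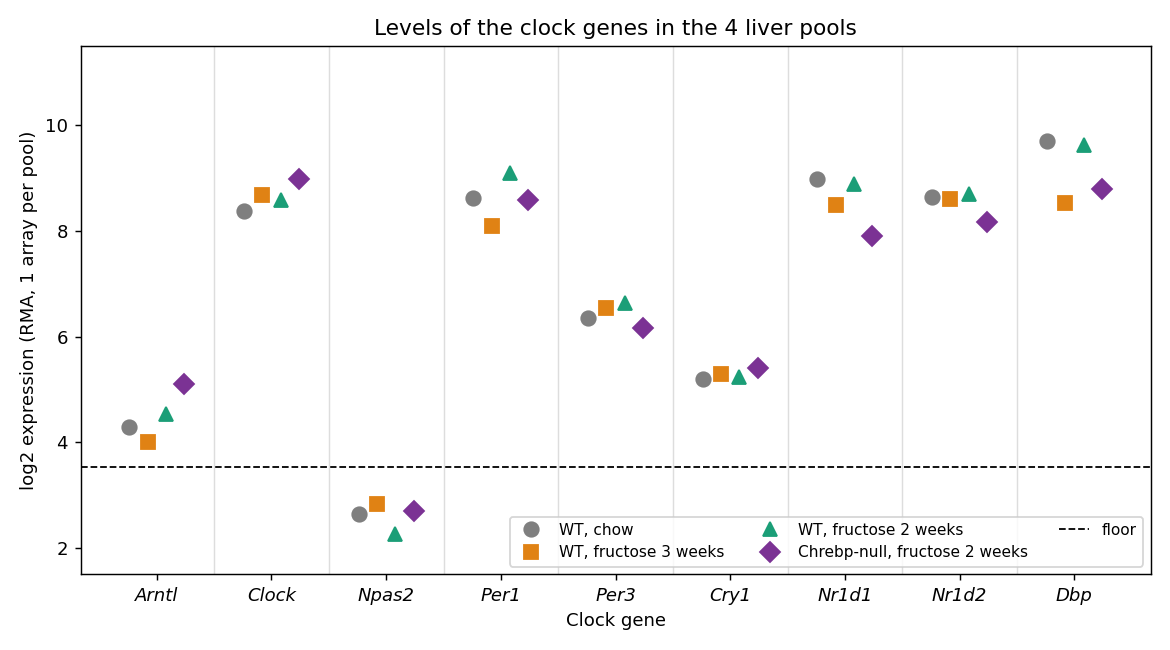
Log2 expression (vertical axis, 1 array per pool, no error bars) of the 9 clock genes with a level in the 4 liver pools, marked by shape and colour; the dashed line is the floor at 3.52. Arntl and Clock are highest and Nr1d1, Nr1d2 and Per3 lowest in the Chrebp-null pool, Per1 and Dbp are lowest in WT after 3 weeks of fructose, and Npas2 lies below the floor.

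The size of these differences can be set against that between the WT fructose pools, which are not replicates, since they held other mice fed for other times. Over 11648 genes above the floor the median absolute log2 difference between those pools was 0.23, and 90% of genes differed by at most 0.65. The differences of Cry1 between any 2 pools lay within that median. Dbp passed the 90% value in both comparisons of the design, and Nr1d1 passed it in the Chrebp-null comparison. Arntl passed it where the null pool was set against chow or the 3-week WT pool, in neither comparison of the design. Per1 passed it between the WT fructose pools alone, the pair that sets the value. Dbp passed it in that pair too, at -1.10, a larger difference than its -0.84 in the Chrebp-null comparison. Each comparison of the design also holds 1 array of that pair.

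In the fructose comparison Dbp was the 1 member that differed by at least 2-fold. It was lower after 3 weeks of fructose, at -1.17 on the log2 scale (a 2.26-fold ratio of the larger to the smaller level). Of the 8 members above the floor, 1 was thus at least 2-fold lower, where 1.16% of all 11717 genes above the floor were, and 0 were at least 2-fold higher, where 0.64% of genes were. No more than 0.504% of genes stood as low as Dbp or lower. With WT after 2 weeks in place of 3 weeks the difference of Dbp from the same chow pool was -0.08, so the 2-fold difference was seen with the 3-week array and not with the 2-week one.

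The other members lay closer to chow after 3 weeks of fructose. Per1 was lower at -0.54 and Nr1d1 at -0.49, and 8.48% and 10.6% of genes stood at least as low. Clock stood at 0.30, Per3 at 0.19, Cry1 at 0.09, Nr1d2 at -0.05 and Arntl at -0.28. Counting any size, 3 members were higher (43.5% of all genes were) and 5 lower (56.5% of all genes), and the median of the 8 was -0.16, against -0.05 over all genes. With the 2-week pool over the same chow pool, Per1 turned to 0.46, Arntl to 0.25 and Nr1d2 to 0.06, and Nr1d1 stood at -0.10. In that pair 0 of the 8 passed 2-fold in either direction, beside 0.783% of genes upward and 1.41% downward.

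In the Chrebp-null comparison 0 members differed by at least 2-fold, where 2.03% of all 11631 genes passed that threshold upward and 1.43% downward. The activators were higher and the REV-ERB genes, Dbp and both measured Per genes were lower. Nr1d1 lay just inside the threshold at -0.98, a ratio of 1.97, and 1.47% of genes stood as low or lower. After quantile normalization it stood at -1.01 and with the lowess trend on level subtracted at -1.03, so with these scalings 1 member was at least 2-fold lower. Dbp followed at -0.84, Nr1d2 at -0.55, Per1 at -0.50 and Per3 at -0.46. Between 1.99% and 5.91% of genes stood at least as low as each of these 4.

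Arntl was higher in the null pool by 0.57 and Clock by 0.41, and 9.74% and 17.5% of genes stood at least as high. Cry1 stood at 0.17, near the median of all genes of 0.10. Counting any size, 5 members were lower, where 36.5% of all genes were, and 3 were higher, where 63.4% were, and the median of the 8 was -0.48. Levels of the targeted gene, Mlxipl, were 9.25 on chow, 9.64 and 9.83 in WT after 3 and 2 weeks of fructose, and 8.09 in the null pool. The labels used here do not say which part of the gene its probe set covers.

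**Figure D2:**
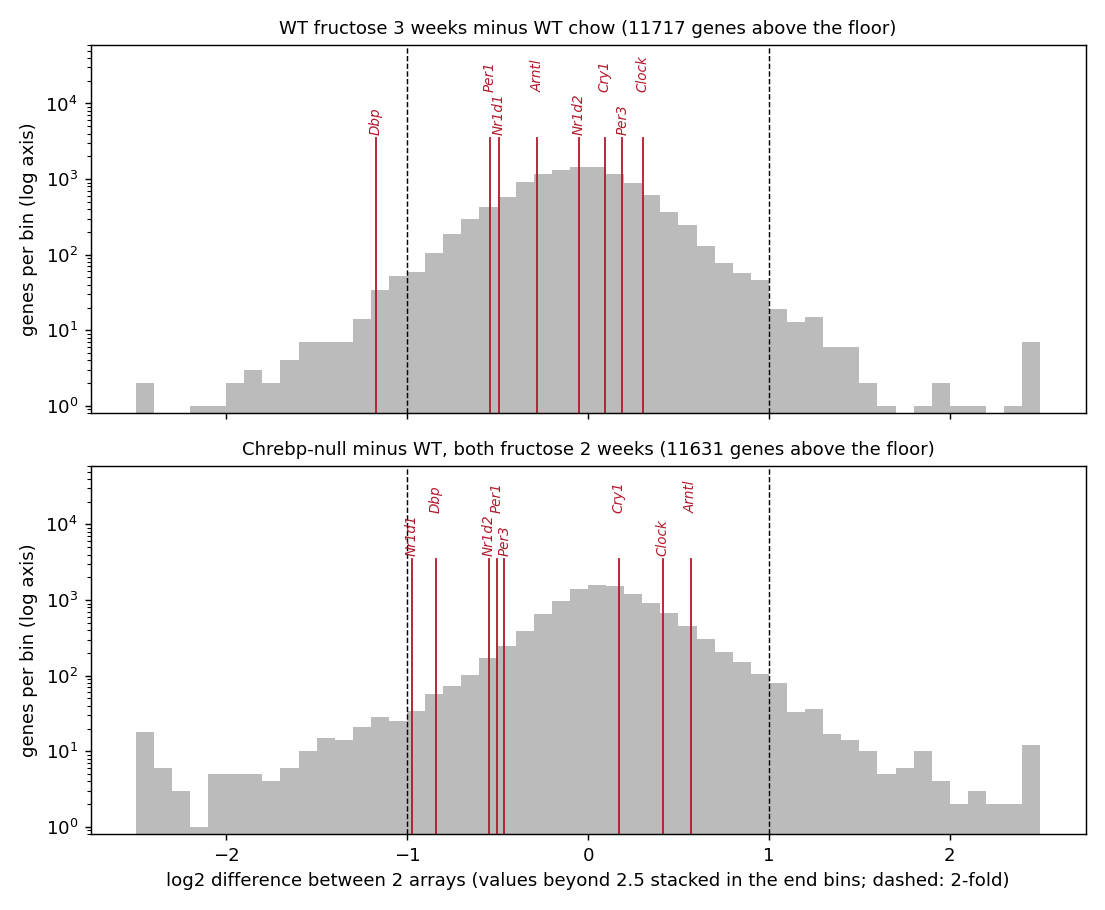
Numbers of genes (vertical log axis) by log2 difference between 2 arrays (horizontal axis, bins of 0.1), for the fructose comparison above and the Chrebp-null comparison below, with the 8 clock genes above the floor as red lines and 2-fold as dashed lines. Dbp at -1.17 is the 1 member past a dashed line in the upper panel, and in the lower panel Nr1d1 at -0.98 lies just short of it with 4 other members on the same side.

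The direction of Dbp and Per1 depended on which WT fructose pool the null pool was set against. Against WT after 3 weeks, Dbp turned to 0.25 and Per1 to 0.50, while Nr1d1 stayed lower at -0.59, Nr1d2 at -0.44 and Per3 at -0.36. Arntl was higher there by 1.10, a ratio of 2.14, and was the 1 member at least 2-fold higher, where 3.38% of 11772 genes were. In that pair 0 members passed 2-fold downward, where 1.95% of genes did. With the lowess trend subtracted, Arntl stood at 0.93, under 2-fold.

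Against chow, the null pool had Nr1d1 at -1.08 as the 1 member at least 2-fold lower, where 1.43% of 11720 genes were, and 0 at least 2-fold higher, where 1.66% were. Dbp stood at -0.92, Nr1d2 at -0.49, Arntl at 0.82 and Clock at 0.62, and Per1 at -0.04. The WT fructose pools differed from each other by -1.10 for Dbp and -1.004 for Per1, lower after 3 weeks, which made 2 of 8 members at least 2-fold lower, where 1.1% of genes were. None was at least 2-fold higher between them, where 1.27% of genes were. Per1 only just passed 2-fold there and stood at -0.99 after quantile normalization. These pairs share arrays with the design's comparisons, so their values are not separate checks of them.

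**Figure D3:**
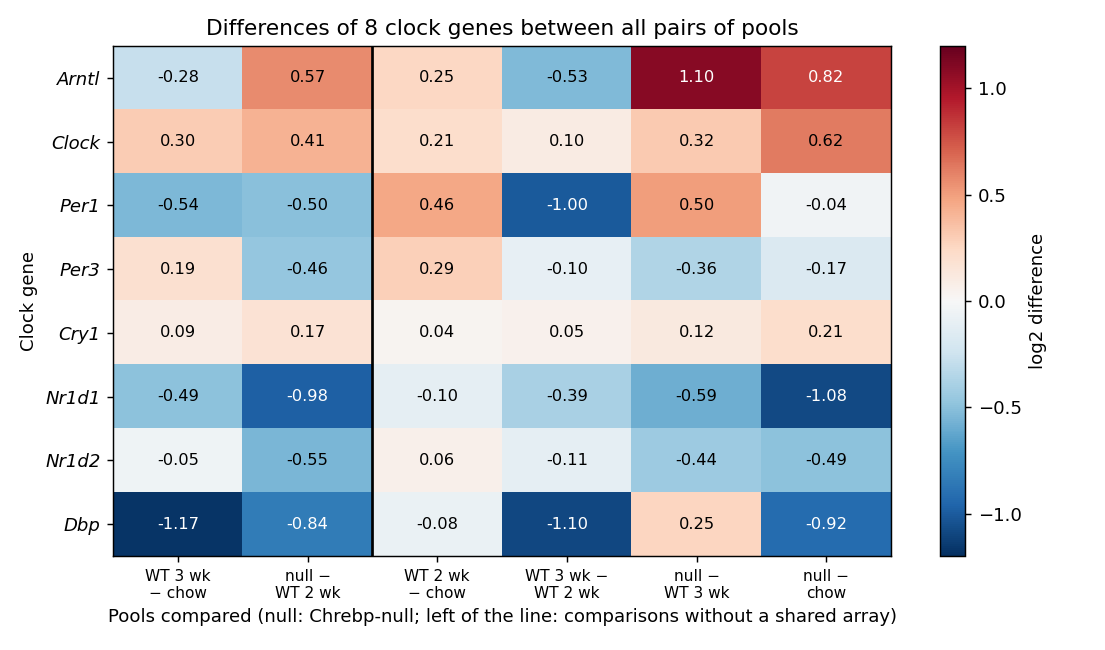
Log2 differences of 8 clock genes (rows) between all 6 pairs of pools (columns, first pool minus second), coloured from blue (lower) to red (higher), with the comparisons of the series design left of the line. Nr1d1, Nr1d2 and Per3 are negative and Arntl, Clock and Cry1 positive in all 3 columns with the null pool (Cry1 over WT after 3 weeks turned to -0.08 with the lowess trend subtracted and to -0.004 after quantile normalization), whereas Dbp and Per1 change sign with the WT fructose pool used.

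A list of 21 further clock genes had 18 with a level, and 14 and 15 of them above the floor in the fructose and the Chrebp-null comparison. None of these differed by at least 2-fold in either. Of all genes, 0.64% were at least 2-fold higher and 1.16% lower in the fructose comparison, and 2.03% and 1.43% in the Chrebp-null comparison. With shares this small, an empty count in so short a list is no trait of these genes. The medians were -0.03 and -0.002, beside -0.05 and 0.10 over all genes. In the Chrebp-null comparison the other repressors above the floor were lower by values like those of the Per genes. Ciart, which encodes a repressor of the ARNTL and CLOCK pair, stood at -0.52, Bhlhe40, an E-box binding repressor, at -0.45, and Cry2 at -0.35. With the null pool set against WT after 3 weeks instead, Ciart was nearly level at -0.04, Bhlhe40 stood at -0.26 and Cry2 at -0.25. Bhlhe41, the relative of Bhlhe40, was below the floor on both arrays of that comparison and at -0.58 in the fructose comparison. In the fructose comparison Ciart stood at -0.13, Bhlhe40 was level, and Cry2 stood at -0.28.

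Tef and Hlf, the other PAR bZIP genes, stood at -0.48 and -0.43 in the null pool and at -0.05 and -0.10 after 3 weeks of fructose. Unlike Dbp, they were thus nearly level in the fructose comparison. Nfil3 encodes the repressor that competes with the PAR bZIP factors for D-boxes and is itself repressed by the REV-ERB receptors. It stood at 4.76 on chow, 4.92 and 3.84 in WT after 3 and 2 weeks of fructose, and 4.78 in the null pool. Its difference of 0.94 in the Chrebp-null comparison therefore came with a 2-week WT level below that of the 3 other pools, and against the 3-week pool it stood at -0.14. In the 3-week over 2-week pair it was higher by 1.09.

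Genes of receptors and enzymes that act on clock proteins also stayed under 2-fold. Rora, which encodes the ROR receptor that opposes REV-ERB, stood at -0.09 in the fructose comparison and 0.13 in the Chrebp-null comparison, and Rorb was below the floor. Among the kinases and ubiquitin enzymes, Csnk1e, a kinase of PER proteins, stood at 0.03 and -0.02, Gsk3b at 0.20 and 0.26, Btrc at 0.21 and 0.09, Fbxw11 at -0.16 and 0.26, and Usp2 at 0.01 and -0.27. Fbxl21 and Timeless, near the floor, stood at 0.42 and 0.26 in the Chrebp-null comparison and were below it in the other. Both reached the floor only in the null pool, and with levels set at the floor these differences were 0.03 and 0.14. Nono stood at 0.34 and -0.002. Arntl2 lay below the floor in both comparisons.

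**Figure D4:**
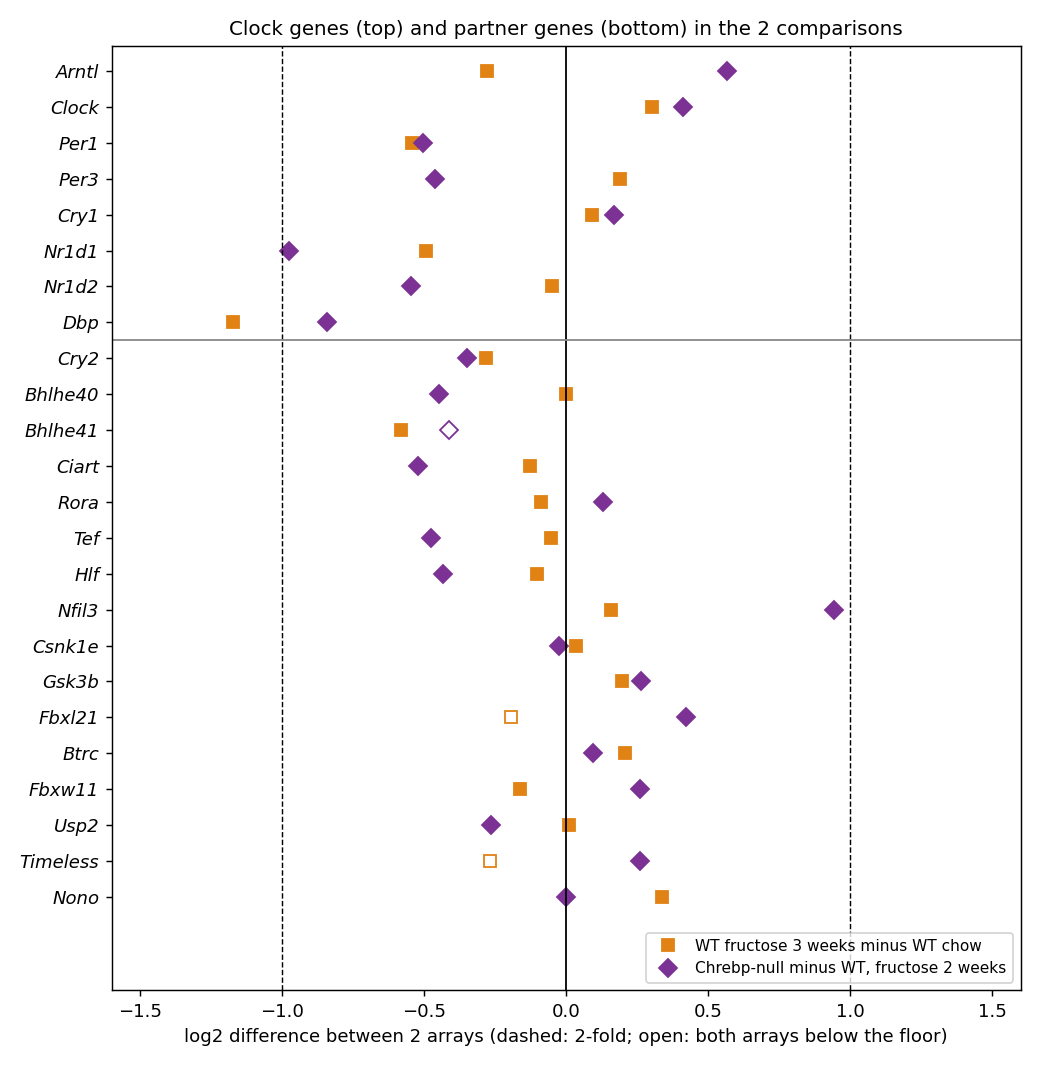
Log2 differences (horizontal axis) of the 8 clock genes (above the grey line) and of the 16 partner genes that reached the floor in at least 1 pool (below it), for the fructose comparison (orange squares) and the Chrebp-null comparison (purple diamonds). In the Chrebp-null comparison the Per, REV-ERB, Dbp, Cry2, Bhlhe40, Ciart, Tef, Hlf and Usp2 points lie left of 0. Those of Arntl, Clock, Cry1, Nfil3, Rora, Gsk3b, Fbxl21, Btrc, Fbxw11 and Timeless lie right of it. Csnk1e and Nono lie close to 0, and the open point of Bhlhe41, below the floor, lies left of it.

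Genes that follow the clock in liver were read from a list of 17 outputs, 16 of them above the floor. In the fructose comparison 1 was at least 2-fold higher and 0 lower, beside 0.64% and 1.16% of all genes. It was Cdkn1a, a cell cycle inhibitor gene, which stood at 4.53 on chow, 5.63 and 6.74 in WT after 3 and 2 weeks of fructose and 7.67 in the null pool. In the Chrebp-null comparison 3 were at least 2-fold lower and 1 higher, beside 1.43% and 2.03% of all genes. The lower ones, Rgs16 at -5.06, Elovl3 at -3.92 and Lpin1 at -2.48, encode a regulator of G protein signalling, a fatty acid elongase and a phosphatidic acid phosphatase, and Rgs16 and Lpin1 are known for control by sugar or feeding as well as by the clock. Cyp2a5, a cytochrome whose transcription PAR bZIP factors drive, was the higher one at 1.29, with levels of 7.62 on chow, 7.48 and 7.18 in WT on fructose, and 8.47 in the null pool. The list medians were 0.13 and 0.18. The list was chosen with earlier results of these data known, so its counts beside those shares are no measure of clock outputs as a class.

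The remaining outputs stayed under 2-fold in both comparisons, as most of all genes did. Some with ties to the members are given here, picked after their values were seen, and others of the list are not. Wee1, a mitotic kinase gene with E-boxes, stood at 0.18 in the fructose and 0.38 in the Chrebp-null comparison. Nampt, which encodes an enzyme of NAD synthesis driven by ARNTL and CLOCK, stood at 0.32 and 0.36. Alas1, the first enzyme of haem synthesis and a target of REV-ERB repression, stood at 0.06 and 0.20. Noct, the nocturnin gene, stood at -0.43 and -0.37, and Gys2, liver glycogen synthase, at -0.16 and -0.83. Levels of Noct were 7.06 on chow, 6.63 and 7.20 in WT after 3 and 2 weeks of fructose, and 6.83 in the null pool. Both of its signs thus turn when the WT fructose arrays are exchanged.

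Genes that respond to feeding, glucocorticoids and body temperature, cues that set the liver clock, were read beside the members. Igfbp1, an insulin-repressed gene of the fasted liver, was lower in the fructose comparison at -2.01, with levels of 9.14 on chow, 7.12 in WT after 3 weeks and 8.57 in WT after 2 weeks. Of the 7 fasting genes measured, 5 were higher in that comparison, where 43.5% of all genes were. Ppargc1a stood at 0.76 and G6pc at 0.70, and the median was 0.04. Of the same 7, 4 were higher in the Chrebp-null comparison, near the share of 63.4% of all genes. The median was also 0.04, and G6pc and Pdk4 passed 2-fold at -2.33 and 1.30. Of all genes, 0.64% were at least 2-fold higher and 1.16% lower in the fructose comparison, and 2.03% and 1.43% in the Chrebp-null comparison. Of the 6 glucocorticoid genes none differed by at least 2-fold in these comparisons. Zbtb16 stood at -0.88, Tsc22d3 at -0.79, Mt2 at 0.98 and Fkbp5 at -0.02 in the Chrebp-null comparison. Of 5 temperature genes above the floor none differed by 2-fold either, and Cirbp, a cold-induced gene, stood at -0.75 in the fructose comparison and 0.66 in the Chrebp-null comparison. The part of these cues in the members' differences was not tested.

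Cell type markers and sex-linked genes were read in the same pools. Hepatocyte markers, 6 of 6 measured, had a mean log2 level from 11.7 to 11.8. Macrophage markers had means of 6.88, 6.70, 7.12 and 7.53 in the chow, 3-week WT, 2-week WT and null pools. Marco stood at 8.21 in the null pool against 4.95 to 5.84 in the others. It was the 1 of 6 at least 2-fold apart in the Chrebp-null comparison. There 2.03% of all genes were at least 2-fold higher and 1.43% lower. Over the 6 the median difference in that comparison was -0.06. Of them 3 were higher and 3 lower, beside 63.4% and 36.5% of all genes, and Adgre1 stood at -0.45. Endothelial markers had means of 7.54 on chow, 7.96 and 7.92 in WT after 3 and 2 weeks of fructose and 7.62 in the null pool, so the null pool lay near chow. In the fructose comparison 6 of 6 were higher, where 43.5% of all genes were, with a median of 0.38. Of the same 6, 5 were lower in the Chrebp-null comparison, where 36.5% of all genes were. Lyve1 was past 2-fold at -1.01, as 1.43% of all genes were downward. Xist, expressed from the inactive X chromosome of females, stood at 7.04 in the null pool and between 8.56 and 8.84 in the WT pools, and the Y-linked Eif2s3y at 7.34 against 6.00 to 6.51. The part of the macrophage, endothelial and sex-linked values in those of the clock genes was not tested.

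For Arntl, Nr1d1, Per1 and Dbp the 5 genes with the most similar pattern were sought among 10455 genes with a mean at or above the floor, by the Euclidean distance over the 4 pools between levels centred on their own mean. With 4 pools, closeness of this kind is a description of these arrays. Nearest to Arntl were Ikbkg, Txnrd1, Cyp39a1, Qsox2 and Mcm7, at distances from 0.051 to 0.078 log2 units. Nearest to Nr1d1 were Lrit1, Cyp4f14, Inmt, Dclk3 and Ube2h, at 0.095 to 0.150. Per1 had Kcne3, Pbxip1, Unc93a2, Sash3 and Adgrg2, at 0.098 to 0.129. Of these, Kcne3, Sash3 and Adgrg2 lay below the floor in WT after 3 weeks of fructose, at 3.44, 3.26 and 3.41. The nearest gene to Dbp, Tob2, lay at 0.204 and the fifth, Derl3, at 0.367, with Cyp2d13, Hsd17b6 and Tmprss6 between them. No clock member was among these genes: the member closest to Nr1d1 was Nr1d2 at 0.463, and the one closest to Dbp was Per1 at 0.640.

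**Figure D5:**
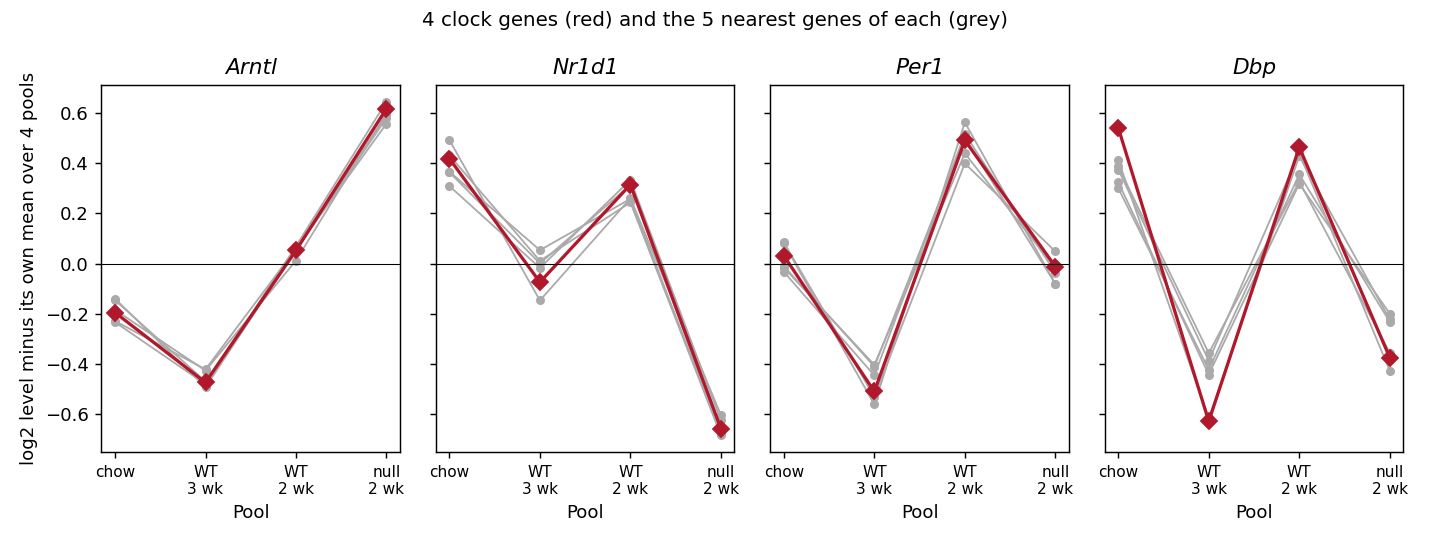
Log2 level minus the gene's own mean over the 4 pools (vertical axis) for Arntl, Nr1d1, Per1 and Dbp (red) and the 5 genes nearest to each (grey); the lines only join the points of a gene, since the pools have no order. Arntl is highest and Nr1d1 lowest in the null pool, Per1 is highest in WT after 2 weeks and lowest after 3 weeks, and the grey points of Dbp lie farther from the red than those of the other genes.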

How the data were processed

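Liver RNA was pooled per group, labelled and hybridised to 1 Affymetrix array for each of 4 groups, per the labels' protocols. The deposited values are on the log2 scale, 1 for each probe set and array, which the authors made with affy and RMA per the submitters' processing notes. The notes name no version, setting or genome build, nor whether all 4 arrays entered 1 normalization. RMA tends to compress large differences. The values were used as deposited. Array medians lay between 3.11 and 3.17, and correlations of array pairs (Pearson's r, 41345 probe sets) between 0.974 and 0.982, lowest for pairs with the 2-week WT array. The files hold no read depth.

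Probe sets with 1 symbol in the platform annotation (23521) were kept, and those with several (1814) or none (16010) were left out. The probe set with the highest mean stood for its gene. A gene was compared where the higher of both arrays reached the floor, the 50th percentile of mean levels, and counted from 2-fold. The genes and lists were chosen with earlier results of these data known. Genes named beyond the members are the partner genes, list genes past 2-fold or with the largest differences in either design comparison, and the 5 nearest to each of 4 members; Wee1, Nampt, Alas1, Noct, Gys2 and Fkbp5 were named outside that rule, after their values were seen. Alternatives were the floor (none, or the 75th percentile), median centring, quantile normalization, removal of the trend with level (lowess, fraction 0.3), the mean of probe sets, 1.5-fold and 3-fold thresholds, an exchange of the WT fructose arrays or their mean, and levels set at the floor. The counting step was tested on simulated arrays, with planted differences larger than those of the members and in genes well above the floor. That test checks the code and does not show how well differences of the members' size are recovered. Python 3.11.15, numpy 2.4.6, pandas 2.3.3, statsmodels 0.14.6 and matplotlib 3.10.9 were used.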

Additional observations from a re-analysis of the deposited data

Results flagged for a closer look

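For Per1 and Nfil3 the WT fructose pools lay on opposite sides of the chow pool and at least 1.5-fold apart from each other. Per1 stood at -0.54 over chow after 3 weeks and at 0.46 after 2 weeks. Nfil3 stood at 0.16 after 3 weeks and at -0.93 after 2 weeks. Both differences use the same chow array, each pool is 1 array, and the difference between the times was not tested.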

How the results depend on the processing

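No paired analysis was possible because each group is 1 array and the labels give no replicate numbers, and no replicate could be left out. With the other WT array the members at least 2-fold lower in the fructose comparison went from 1 to 0 and those at least 2-fold higher in the Chrebp-null comparison from 0 to 1 (Arntl), and the outputs higher on fructose from 1 to 2. With the mean of both WT arrays the members lower on fructose were 0, and the outputs higher were 2 in each comparison. In the Chrebp-null comparison the members lower were 1 (Nr1d1) after quantile normalization and 1 after removal of the trend with level, which also put the outputs higher on fructose at 2. At 1.5-fold, 2 members were lower and 1 partner gene and 2 outputs higher in the Chrebp-null comparison, and 4 outputs were higher on fructose. At 3-fold, 0 members were lower on fructose and 0 outputs higher in either comparison. With the floor at the 75th percentile 0 outputs were higher on fructose. The other 115 counts stayed within 1.5 times their value as deposited. Some of them could not move, since a count of 0 at 2-fold stays 0 at 3-fold and each member has 1 probe set. With the other WT array 3 of 8 members changed sign in the fructose comparison (Arntl, Per1 and Nr1d2) and 2 in the Chrebp-null comparison (Per1 and Dbp). With the mean of both, 1 changed sign in the fructose comparison and 0 in the other. Median centring, quantile normalization and trend removal changed no member's sign in either comparison of the design. The mean of probe sets and levels set at the floor could not change a sign. Each member has 1 probe set, and the 8 members compared lay above the floor in every pool. In the Chrebp-null comparison trend removal moved the median of all genes from 0.10 to -0.004. Over all genes, removal of the trend moved the called genes from 75 higher and 136 lower to 93 and 105 in the fructose comparison, and from 236 and 166 to 140 and 225 in the Chrebp-null comparison. Where the WT array was exchanged the cause of the shift was not tested. Npas2, below the floor in every pool, could not be compared.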
